A study of Mus musculus with 7 samples.

Results

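The livers described here are the control livers of 2 experiments on mice that carry the same SunTag-dCas9 knock-in. The 2 libraries labelled SunTag were compared with the 2 libraries labelled Myod1_control, and every difference is given as Myod1_control minus SunTag. A gene entered if its row had the status OK in these 4 libraries, spanned at least 300 bp and reached 1 FPKM in at least 1 of the 4. FPKM is a density of sequenced fragments, divided by transcript length and library total. Of 37468 rows per library 14121 met this rule, and 14120 of them, with the status OK in all 7 libraries of the series, were tested. All mice were C57BL/6 by their labels, and total RNA of liver was sequenced. The SunTag genotype was studied beside 2 wild-type (WT) libraries, and the Myod1 Control genotype beside 1 library labelled Myod1_active. Both groups therefore share the knock-in of a dCas9 protein that binds DNA at the site of a guide RNA without cutting it, and of the SunTag, a repeated peptide that recruits effector proteins to that site. What the Myod1 controls received, the promoter that drives the knock-in, and the age, sex and feeding state of the animals are not stated in the sources used here. Experiment, any processing batch and the animals themselves cannot be told apart in this comparison, since each group belongs to 1 experiment.

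Liver carries out the body's central metabolism of lipid, carbohydrate, amino acids and bile acids in hepatocytes, which lie beside Kupffer cells (the resident macrophages), sinusoidal endothelial cells, stellate cells and cholangiocytes. Many hepatocyte genes are sex-biased in mice, because males and females secrete growth hormone in different patterns and hepatocytes read the pattern through the receptor Ghr and the transcription factor Stat5b. Hepatocyte transcription also follows feeding, the clock, glucocorticoids and the protein load of the endoplasmic reticulum.

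Libraries of the same experiment resembled each other most. Across tested genes, which share these libraries, the log2 levels of the 2 SunTag libraries correlated with Pearson's r = 0.974, those of the 2 Myod1_control libraries with r = 0.98, and the 4 pairs across the groups with r = 0.895 to 0.931. SunTag replicate 1 stood apart from its own experiment: it correlated at 0.974 to 0.98 with SunTag replicate 2 and both WT libraries, which correlated with each other at 0.99 to 0.991. The mitochondrial tRNA mt-Ts1 took 33.4% and 26.3% of the FPKM sum in SunTag and 5.80% and 8.32% in Myod1_control. Each library's FPKM were divided by a scale factor, because the median gene was known to shift between the 2 experiments. The factor was 1.01 in both SunTag libraries and 0.916 and 0.913 in the Myod1_control libraries, and all levels below are these scaled FPKM. Read counts were not given, so the depth behind each value is unknown.

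Differences between the control livers were widespread. limma called 2056 genes higher (14.6% of those tested) and 2725 lower (19.3%) in Myod1_control at an adjusted p under 0.05, and 772 and 1262 of these differed at least 2-fold. The groups did not overlap, with both Myod1_control libraries above or both below the 2 SunTag libraries, for 4646 genes in the higher direction (32.9%) and 5287 in the lower (37.4%). All 4781 called genes were among them, so for a called gene a lack of overlap adds no support to the call. The median log2 difference over all tested genes was -0.04, against 0.89 for the genes called higher and -0.96 for those called lower. Without scaling 1516 genes were higher and 3355 lower, so that 31.1% of the calls were higher against 43.0% with scaling, and with quantile normalization the counts were 2330 and 2356. The counts changed with single libraries. They were 703 and 771 without Myod1_control replicate 1, 664 and 657 without Myod1_control replicate 2, 1063 and 1549 without SunTag replicate 1, 1236 and 1659 without WT replicate 1, and 1231 and 1648 without WT replicate 2. The labels do not tie libraries to animals, and p-values reflect library-to-library spread, which may be technical. The remaining libraries of the 2 experiments have no part in the difference itself. WT does add to the spread behind the calls, and all 7 libraries set the scale factors. Myod1_active and WT mostly lay on the same sides as the controls of their experiments. Myod1_active was above the WT mean for 1888 of the 2056 genes called higher (91.8%). It was below the WT mean for 2564 of the 2725 called lower (94.1%), against the same sign in 76.5% of all tested genes.

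**Figure D1:**
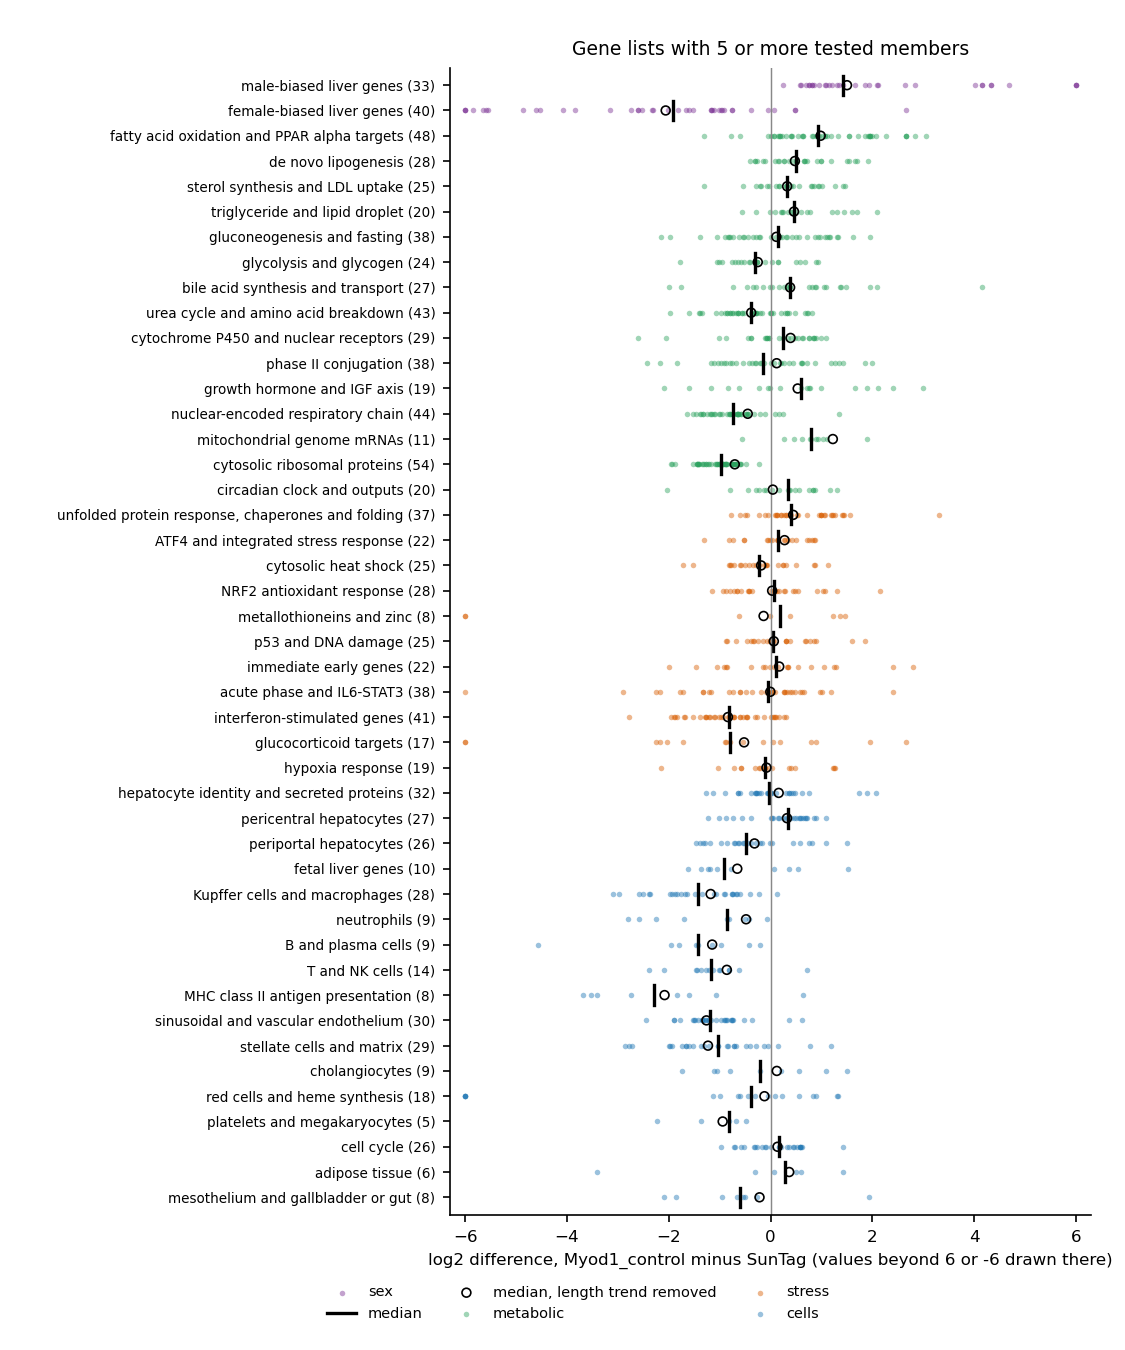
Differences by gene list. Each colored point is the log2 difference (Myod1_control minus SunTag, log2 of scaled FPKM + 1) of 1 tested gene, black bars are list medians, open circles are medians after a trend with transcript length was removed, and counts of tested genes are in parentheses; of these lists, each with at least 5 tested genes, the male-biased list lies highest, with a median of 1.42, and the MHC class II list lowest, with -2.29.

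Sex-linked transcripts separated the 2 groups. Xist (ENSMUSG00000086503, chrX:100655714-100678556 on mm9), the RNA that coats the inactive X chromosome, was at 56.5 and 75.6 scaled FPKM in SunTag and 0.353 and 0.0353 in Myod1_control (log2 difference -5.81, SE 0.22, adjusted p = 3.27e-05). The Y-linked genes Eif2s3y, a translation factor subunit, and Ddx3y, an RNA helicase, were listed at 0 in both SunTag libraries and were at 36.8 and 40.9 and at 9.01 and 7.63 scaled FPKM in Myod1_control. Kdm5d, a Y-linked histone demethylase, was likewise at 0 in SunTag and at 3.64 and 3.21 in Myod1_control. Uty, a related Y-linked gene, was at 0.23 and 0.132 scaled FPKM in SunTag and 2.95 and 3.47 in Myod1_control. WT lay with SunTag for Xist, at 79.1 and 66.3 scaled FPKM, and Myod1_active, at 0.00371, lay with its controls. The labels give no sex. By these transcripts the 2 experiments lie on opposite sides, so sex and experiment cannot be told apart in any difference reported here. The other 4 Y-linked genes of the list were below the filter. Xist reached 1 FPKM in SunTag and in no Myod1_control library, and all 4 tested Y-linked genes in Myod1_control and in no SunTag library. These genes so had to differ to enter, and the count of those called adds no support.

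Male-biased liver genes were higher in Myod1_control throughout the list. Of 33 tested members 21 rose and 0 fell, all 33 differences were above 0, and the median log2 difference was 1.42. Elovl3 (ENSMUSG00000038754, chr19:46206387-46210184), an elongase of very long fatty acids, was at 0.131 and 0.179 scaled FPKM in SunTag and 415 and 314 in Myod1_control (log2 difference 8.29, SE 0.19, adjusted p = 7.35e-06). The arachidonic acid hydroxylases Cyp4a12a and Cyp4a12b, near-identical copies that are uncertain one by one, were at 0.286 and 0.11 scaled FPKM in SunTag and 181 and 129 in Myod1_control (Cyp4a12a) and 0.30 and 0.025 scaled FPKM in SunTag and 123 and 86.7 in Myod1_control (Cyp4a12b). Cyp7b1, an oxysterol hydroxylase that feeds bile acid synthesis, was at 6.27 and 7.67 scaled FPKM in SunTag and 168 and 118 in Myod1_control (log2 difference 4.16, SE 0.31, adjusted p = 0.00131). C6, a terminal complement protein, was at 9.94 and 4.6 scaled FPKM in SunTag and 179 and 135 in Myod1_control. Susd4, a complement regulator, was at 1.06 and 1.58 scaled FPKM in SunTag and 15.3 and 11.8 in Myod1_control. For each of these genes both Myod1_control libraries were far above both SunTag libraries, and Myod1_active lay on their side, at 56.4 scaled FPKM for Elovl3 and 61.5 for Cyp7b1. Mup20, a male urinary pheromone-binding protein of a family of near-identical copies, was at 177 and 117 scaled FPKM in SunTag and 3976 and 2153 in Myod1_control (log2 difference 4.33, adjusted p = 0.00255). The steroid dehydrogenase Hsd3b5 was at 3.64 and 1.09 scaled FPKM in SunTag and 96.3 and 64.6 in Myod1_control. Pitx3, whose row overlaps the end of Elovl3, rose too, from 0.0199 and 0.0223 to 48.5 and 28.6 scaled FPKM, and is uncertain because strand use in counting is not stated in the sources used here. Of the tested members 4 reached 1 FPKM in Myod1_control alone, and 1 of 34 listed genes, Gstp1, was not tested. It was not low, at 549 and 451 scaled FPKM in SunTag and 2884 and 0 in Myod1_control. Of the list, between 11 (without Myod1_control replicate 1) and 23 (without SunTag replicate 2) rose with 1 library left out. Calls that ended under another setting, with the adjusted p there, were those of Hsd3b5 without Myod1_control replicate 1 (0.0556).

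Female-biased liver genes moved the other way, with 30 of 40 lower, 1 higher and a median log2 difference of -1.92. Slc22a26 (ENSMUSG00000053303, chr19:7855531-7877157), an organic anion transporter, was at 48.2 and 53.5 scaled FPKM in SunTag and 0 and 0.0494 in Myod1_control (log2 difference -5.66, SE 0.15, adjusted p = 7.93e-06). Cyp2b9, a female-specific cytochrome P450 with close copies, was at 109 and 236 scaled FPKM in SunTag and 0.0885 and 0.727 in Myod1_control. Cyp17a1, a steroid hydroxylase, was at 122 and 169.9 scaled FPKM in SunTag and 3.53 and 4.43 in Myod1_control. The 2-hydroxyacid oxidase Hao2 was at 14.8 and 12.7 scaled FPKM in SunTag and 0.0496 and 0 in Myod1_control. Both Myod1_control libraries were near 0 for Slc22a26, Hao2 and Cyp2b9, while every SunTag and WT library was well above. Sult2a1 and Sult2a2, near-identical bile acid and steroid sulfotransferases, were listed at 0 in both Myod1_control libraries and were at 16.4 and 189.5 and at 40.0 and 151 scaled FPKM in SunTag, where the 2 libraries themselves differed widely. The 1 gene of the list that rose was Cyp4a10, a fatty acid hydroxylase and classical PPAR alpha target, at 39.9 and 107 scaled FPKM in SunTag and 319 and 546 in Myod1_control (log2 difference 2.65, adjusted p = 0.00932). Of the tested members 13 reached 1 FPKM in SunTag and in no Myod1_control library and so had to differ to enter. Among list members, between 14 (without Myod1_control replicate 1) and 29 (without SunTag replicate 1) fell with 1 library left out. Under other settings the adjusted p reached 0.05 or more for Sult2a1 with either Myod1_control library left out (0.0599 to 0.0616), and Cyp4a10 without Myod1_control replicate 2 (0.0695).

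**Figure D2:**
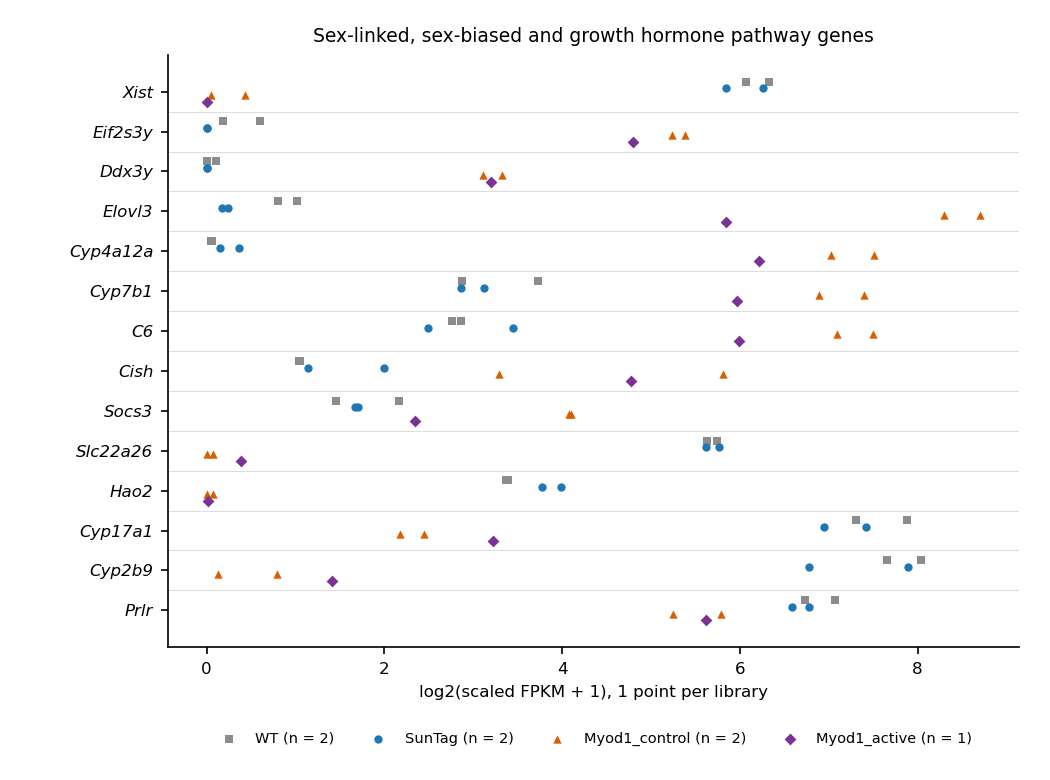
Sex-linked, sex-biased and growth hormone pathway genes by library. The horizontal axis is log2(scaled FPKM + 1), each point is 1 library, and for Xist, Eif2s3y, Elovl3 and Slc22a26 the 2 Myod1_control libraries and the Myod1_active library lie on the opposite side from the SunTag and WT libraries.

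Genes of the growth hormone pathway, which sets the sex bias of liver, also differed. Of 19 tested members 7 rose and 2 fell, with a median log2 difference of 0.60. Those shares, 36.8% and 10.5%, stand beside 14.6% and 19.3% over all tested genes. The median was 0.10 without SunTag replicate 2, where 4 of the genes fell. The feedback inhibitors of JAK and STAT signaling led them. Socs3 (ENSMUSG00000053113, chr11:117827393-117831361) was at 2.24 and 2.17 scaled FPKM in SunTag and 16.1 and 15.9 in Myod1_control (log2 difference 2.40, SE 0.23, adjusted p = 0.00257). Cish was at 1.21 and 2.98 scaled FPKM in SunTag and 55.2 and 8.78 in Myod1_control (log2 difference 2.98, SE 0.72, adjusted p = 0.0217). The 2 Myod1_control libraries were nearly equal for Socs3 and differed several-fold for Cish, and the groups overlapped for neither. Among the pathway's receptors and transducers, the growth hormone receptor Ghr was at 161 and 172 scaled FPKM in SunTag and 363 and 300.3 in Myod1_control. The transcription factor Stat5b was at 13.2 and 12.6 scaled FPKM in SunTag and 23.8 and 21 in Myod1_control. The epidermal growth factor receptor Egfr, itself male-biased, was at 116 and 62.6 scaled FPKM in SunTag and 314 and 232 in Myod1_control. Each of these 3 rose. The prolactin receptor Prlr, a female-biased receptor, fell, at 95.1 and 108 scaled FPKM in SunTag and 36.9 and 54.1 in Myod1_control, as did the IGF carrier Igfbp3, at 21.8 and 13.1 scaled FPKM in SunTag and 3.09 and 3.36 in Myod1_control (log2 difference -2.09, adjusted p = 0.00385). Igf1 itself, the hormone made under growth hormone and chosen here after its values were seen, did not pass, at 719.6 and 314 scaled FPKM in SunTag and 337 and 283 in Myod1_control (log2 difference -0.62, adjusted p = 0.24). Of the list, between 1 (without Myod1_control replicate 1) and 6 (without Myod1_control replicate 2 or either SunTag library or either WT library) rose with 1 library left out. Some calls did not hold under every setting: Cish without SunTag replicate 1 or Myod1_control replicate 1, with rows under 300 bp kept, with no filter on low values, in a fit of the 4 libraries alone (0.0508 to 0.107), and Ghr without Myod1_control replicate 1 (0.065). Settings that ended a call, with the adjusted p, were found for Stat5b with either Myod1_control library left out (0.0541 to 0.0722), and Egfr with either Myod1_control library left out, with no filter on low values (0.0508 to 0.0986). Not called under every setting, with the adjusted p, were Prlr without Myod1_control replicate 1 (0.0704).

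The promoters of the 2 feedback inhibitors are shown because both hold the letters of a STAT site, the GAS motif TTCNNNGAA, which was searched on both strands in the 300 bases around each gene's start. The sequences are RefSeq's on GRCm38.p6, a later build than the mm9 of the expression values, from chr9:107296409-107296708 on the plus strand for Cish and chr11:117969317-117969616 on the minus strand for Socs3, and capitals mark the matches.
Cish: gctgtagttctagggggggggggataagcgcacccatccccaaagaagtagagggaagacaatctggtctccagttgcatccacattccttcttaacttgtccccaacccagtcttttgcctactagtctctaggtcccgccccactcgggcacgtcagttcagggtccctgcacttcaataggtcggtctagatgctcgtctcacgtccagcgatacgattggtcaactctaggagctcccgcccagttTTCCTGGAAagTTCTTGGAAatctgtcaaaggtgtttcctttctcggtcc
Socs3: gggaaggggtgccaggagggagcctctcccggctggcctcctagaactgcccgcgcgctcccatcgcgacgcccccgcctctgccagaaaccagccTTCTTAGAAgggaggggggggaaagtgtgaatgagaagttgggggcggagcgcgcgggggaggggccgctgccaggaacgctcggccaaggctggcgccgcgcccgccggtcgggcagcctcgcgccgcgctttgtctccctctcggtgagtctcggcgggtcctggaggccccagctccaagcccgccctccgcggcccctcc

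Cish held 2 matches and Socs3 held 1. Of the 7 pathway genes that rose, all with a promoter in the table, 3 held the motif (42.9%), against 9.55% of the 27025 genes of the table. Among female-biased genes that fell it was 6 of 22 with a promoter (27.3%), and among male-biased genes that rose 1 of 15 (6.67%). The motif was not particular to genes that rose. It was in 1 of the 2 pathway genes that fell and in 6 of 17 interferon genes that fell (35.3%). Of acute phase genes 3 of 9 that fell (33.3%) and 1 of 6 that rose (16.7%) held it. These are counts of letters in a short window and not of bound sites.

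Fatty acid oxidation genes were higher in Myod1_control. Of the fatty acid oxidation genes and PPAR alpha targets, 27 of 48 tested members rose and 2 fell, and 44 of the 48 differences were above 0 (median 0.94 on the log2 scale). Ppara (ENSMUSG00000022383, chr15:85565413-85633249), the nuclear receptor that switches these genes on during fasting, was at 19.3 and 17.2 scaled FPKM in SunTag and 55.5 and 69.6 in Myod1_control (log2 difference 1.71, SE 0.18, adjusted p = 0.00286). Pex11a, which divides peroxisomes, was at 14.6 and 19.5 scaled FPKM in SunTag and 79 and 91.5 in Myod1_control (log2 difference 2.27, adjusted p = 0.00211). The carnitine transporter Slc22a5 was at 3.41 and 4.01 scaled FPKM in SunTag and 15.9 and 19.6 in Myod1_control. The acyl-CoA synthetase and importer Slc27a2 was at 188 and 295 scaled FPKM in SunTag and 966 and 858 in Myod1_control. Creb3l3, a fasting-induced transcription factor of liver, was at 107 and 93.8 scaled FPKM in SunTag and 249 and 258 in Myod1_control. In all 5 genes both Myod1_control libraries were above both SunTag libraries by more than the spread within either group. The 2 that fell were Ucp2 and Cd36. Ucp2, a mitochondrial carrier also abundant in macrophages, was at 53.4 and 42.4 scaled FPKM in SunTag and 17 and 20.5 in Myod1_control. Cd36, a fatty acid transporter, was at 17 and 12.5 scaled FPKM in SunTag and 6.26 and 10.3 in Myod1_control, but WT was lower than either control library, at 5.86 and 5.89 scaled FPKM. Myod1_active minus WT had a median log2 difference of 0.27 over this list. With 1 library left out, the count of members that rose ran from 12 (without Myod1_control replicate 2) to 32 (without SunTag replicate 2). Calls that ended under another setting, with the adjusted p there, were those of Cd36 without SunTag replicate 1 or either WT library or either Myod1_control library, with rows under 300 bp kept, with no filter on low values, in a fit of the 4 libraries alone, with no mean trend in the variance, with a replicate block (0.051 to 0.205).

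Lipid synthesis genes rose as well, in smaller number. In de novo lipogenesis 7 of 28 tested members rose and 0 fell (median 0.51), in triglyceride and lipid droplet genes 7 of 20 rose and 0 fell (median 0.46), and in sterol synthesis and LDL uptake 7 of 25 rose and 1 fell (median 0.33). The shares that rose were 25%, 35% and 28%, against 14.6% of all tested genes. The lipogenesis median was 0.26 without Myod1_control replicate 2, 0.16 without SunTag replicate 1 and 0.79 without SunTag replicate 2. That of sterol synthesis was 0.54 without Myod1_control replicate 1, 0.21 without Myod1_control replicate 2, 0.57 without SunTag replicate 2 and 0.19 with no scaling. Acaca and Acacb, the acetyl-CoA carboxylases that make the building block of fatty acids and the inhibitor of their import into mitochondria, were at 10.7 and 15.6 scaled FPKM in SunTag and 47 and 56.3 in Myod1_control (Acaca) and 14.3 and 19.3 scaled FPKM in SunTag and 48.5 and 62 in Myod1_control (Acacb). Mlxipl, the carbohydrate-responsive transcription factor ChREBP, was at 80.7 and 103 scaled FPKM in SunTag and 236 and 299.7 in Myod1_control (log2 difference 1.53, adjusted p = 0.00595). All 3 of these genes rose. Fasn, fatty acid synthase, did not pass, at 119 and 335 scaled FPKM in SunTag and 189.5 and 416 in Myod1_control (log2 difference 0.49, adjusted p = 0.505), and SunTag replicate 2 lay between the Myod1_control libraries. Acly, of the lipogenesis list too, was left out of the test although not low, at 121 and 193 scaled FPKM in SunTag and 232 and 387 in Myod1_control. It was listed at 0 in Myod1_active. Plin2, the coat protein of lipid droplets, was at 203 and 222 scaled FPKM in SunTag and 484 and 689 in Myod1_control (log2 difference 1.44, adjusted p = 0.00663). The phosphatidate phosphatase Lpin2 was at 24.8 and 19.4 scaled FPKM in SunTag and 58.9 and 79.6 in Myod1_control. Fitm2, which helps droplets form at the endoplasmic reticulum, was at 6.8 and 7.68 scaled FPKM in SunTag and 18.9 and 17.3 in Myod1_control. Scap, the escort of the sterol-sensing factors, was at 51.6 and 79.9 scaled FPKM in SunTag and 192 and 165 in Myod1_control. Mylip, the ubiquitin ligase that degrades the LDL receptor, was the sterol gene that fell, at 4.53 and 4.61 scaled FPKM in SunTag and 0.984 and 1.58 in Myod1_control. In de novo lipogenesis between 4 (without Myod1_control replicate 2) and 10 (without SunTag replicate 2) rose with 1 library left out, for triglyceride genes from 4 to 7, and for sterol genes from 1 to 9, each fewest without Myod1_control replicate 2. Under other settings the adjusted p reached 0.05 or more for Scap without Myod1_control replicate 1 (0.056).

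Genes of amino acid breakdown and of glycolysis included more that fell than rose. Of the genes of the urea cycle and amino acid breakdown 17 of 43 fell and 3 rose (median -0.38), and of glycolysis and glycogen genes 8 of 24 fell and 2 rose (median -0.30). The glycolysis median was -0.47 without Myod1_control replicate 2 and -0.19 with quantile normalization. Mat1a (ENSMUSG00000037798, chr14:41918670-41937701), which makes the methyl donor S-adenosylmethionine, was at 1143 and 1209.8 scaled FPKM in SunTag and 339.7 and 434 in Myod1_control (log2 difference -1.61, SE 0.20, adjusted p = 0.00442). Got1, the cytosolic aspartate aminotransferase, was at 447 and 301 scaled FPKM in SunTag and 114 and 75 in Myod1_control. The tyrosine-degrading enzymes Hpd and Hgd were at 3085 and 3569 scaled FPKM in SunTag and 1280.2 and 1209 in Myod1_control (Hpd) and 959 and 768 scaled FPKM in SunTag and 374 and 303 in Myod1_control (Hgd). All 4 enzymes were lower in both Myod1_control libraries than in any SunTag or WT library. Cps1, the entry enzyme of the urea cycle, went up instead, at 632 and 637 scaled FPKM in SunTag and 1071 and 1173 in Myod1_control (log2 difference 0.82, adjusted p = 0.0159). Among glycolytic and glycogen genes, fructokinase Khk was at 499.5 and 634 scaled FPKM in SunTag and 258 and 288 in Myod1_control. Glycogen synthase Gys2 was at 67.1 and 84.8 scaled FPKM in SunTag and 32.7 and 45.1 in Myod1_control. Both fell, while the phosphofructokinase Pfkl rose, at 14.9 and 16.4 scaled FPKM in SunTag and 29.8 and 30.1 in Myod1_control. In gluconeogenesis and fasting 11 of 38 tested members rose and 4 fell (median 0.15), and the median was 0.01 without SunTag replicate 1, 0.01 with no scaling and 0.26 with quantile normalization. The shares that rose and fell there were 28.9% and 10.5%, against 14.6% and 19.3% of all tested genes. Fbp1, fructose bisphosphatase, fell, at 1269.8 and 908 scaled FPKM in SunTag and 431 and 394 in Myod1_control. The insulin receptor Insr rose, at 8.7 and 11.4 scaled FPKM in SunTag and 37.1 and 28.5 in Myod1_control, as did the fasting-activated factor Foxo3, at 6.01 and 5.32 scaled FPKM in SunTag and 13.5 and 14.1 in Myod1_control. Pck1, the rate-limiting enzyme of gluconeogenesis, did not pass, at 1151 and 562 scaled FPKM in SunTag and 694 and 441 in Myod1_control (log2 difference -0.54, adjusted p = 0.291). Of the urea and amino acid list between 2 (without Myod1_control replicate 2) and 15 (without SunTag replicate 2) fell with 1 library left out, of the glycolytic list between 0 (without Myod1_control replicate 1) and 8 (without SunTag replicate 2) fell with 1 library left out, and of the gluconeogenic list between 5 (with either Myod1_control library left out) and 12 (without SunTag replicate 2) rose with 1 library left out. Some calls did not hold under every setting: Hpd without Myod1_control replicate 2 (0.0522), and Hgd without Myod1_control replicate 2 (0.0547). Settings that ended a call, with the adjusted p, were found for Cps1 with either Myod1_control library left out (0.0649 to 0.086). Not called under every setting, with the adjusted p, were Khk with either Myod1_control library left out, with quantile normalization, with no filter on low values (0.0504 to 0.107), and Gys2 with either Myod1_control library left out (0.0508 to 0.102). Calls that ended under another setting, with the adjusted p there, were those of Pfkl with either Myod1_control library left out (0.0658 to 0.0697), and Fbp1 without Myod1_control replicate 2 (0.0553).

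Bile acid and xenobiotic genes were mixed. In bile acid synthesis and transport 9 of 27 tested members rose and 2 fell (median 0.38). Besides Cyp7b1, the canalicular export pump Abcc2 was at 29.1 and 48.6 scaled FPKM in SunTag and 130.2 and 171 in Myod1_control (log2 difference 1.96, adjusted p = 0.00539). The sterol 27-hydroxylase Cyp27a1 was at 166 and 201 scaled FPKM in SunTag and 375 and 407 in Myod1_control. Both rose. The organic anion importer Slco1a4 fell, at 29.6 and 24.6 scaled FPKM in SunTag and 5.13 and 7.04 in Myod1_control (log2 difference -1.99, adjusted p = 0.00247). Cyp7a1, the rate-limiting enzyme of the classical bile acid pathway, did not pass, at 30.4 and 92.7 scaled FPKM in SunTag and 43.6 and 22.8 in Myod1_control (log2 difference -0.73, adjusted p = 0.331). Phase II conjugation enzymes split, with 10 of 38 higher and 11 lower: the glucuronosyltransferase Ugt2b35 was at 18.9 and 28.4 scaled FPKM in SunTag and 96.1 and 93.4 in Myod1_control. The phenol sulfotransferase Sult1a1 was at 427 and 410.3 scaled FPKM in SunTag and 77.4 and 109.7 in Myod1_control (log2 difference -2.17, adjusted p = 0.00255). Cytochrome P450 genes and their nuclear receptors, a list that shares Cyp2b10 and Cyp2a5 with the female-biased list, gave 6 higher and 2 lower of 29. The sign of the last 2 medians was not stable over the settings tried, from -0.29 to 0.12 for conjugation and from -0.14 to 0.54 for the P450 list. Over all tested genes 14.6% were higher and 19.3% lower, against 20.7% and 6.90% of the P450 list. For conjugation the shares were 26.3% and 28.9%, and for bile acid genes 33.3% and 7.41%. Of the bile acid list between 2 (without Myod1_control replicate 2) and 9 (with either SunTag library left out) rose with 1 library left out, of the conjugation list between 1 (without Myod1_control replicate 2) and 9 (with either SunTag library left out) fell with 1 library left out and of the P450 list between 0 (without Myod1_control replicate 2) and 11 (without SunTag replicate 2) rose with 1 library left out. Under other settings the adjusted p reached 0.05 or more for Cyp27a1 without Myod1_control replicate 2 (0.0578).

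Ribosomal and respiratory chain genes were lower in Myod1_control nearly throughout. Of 54 tested genes for cytosolic ribosomal proteins 38 fell, 0 rose and all 54 differences were below 0 (median -0.97, and -0.63 without SunTag replicate 1). Rpl38, a protein of the large subunit, was at 814 and 375 scaled FPKM in SunTag and 149 and 134 in Myod1_control (log2 difference -1.96, adjusted p = 0.00898). SunTag replicate 1 was higher than the other SunTag and both WT libraries for this gene, and the Myod1_control libraries lay below all 4. Among nuclear-encoded respiratory chain genes 29 of 44 fell and 1 rose (median -0.73), for example the complex I subunit Ndufa1, at 455 and 295 scaled FPKM in SunTag and 139 and 115 in Myod1_control. The ATP synthase subunit Atp5g1 was at 429.7 and 359 scaled FPKM in SunTag and 168 and 179.9 in Myod1_control. The gene that rose was Sdha, the catalytic subunit of complex II, at 584 and 719 scaled FPKM in SunTag and 1508 and 1808 in Myod1_control (log2 difference 1.35, adjusted p = 0.00713). Messages of the mitochondrial genome went up: 6 of 11 tested members rose and 0 fell (median 0.79), led by the complex I subunit mt-Nd5, at 916 and 1036 scaled FPKM in SunTag and 3006 and 4357 in Myod1_control (log2 difference 1.89, adjusted p = 0.00435). No ribosomal call was left without Myod1_control replicate 2, 1 was left without Myod1_control replicate 1, while 27 were called without SunTag replicate 1 and all 54 without SunTag replicate 2. Of the respiratory chain genes between 1 (without Myod1_control replicate 2) and 35 (without SunTag replicate 2) fell with 1 library left out, and of the mitochondrial messages between 1 (without Myod1_control replicate 2) and 3 (with either WT library left out) rose with 1 library left out. Some calls did not hold under every setting: Rpl38 with either Myod1_control library left out (0.0571 to 0.0657), and Ndufa1 without Myod1_control replicate 2 (0.0561). Settings that ended a call, with the adjusted p, were found for Atp5g1 without Myod1_control replicate 1 (0.0502), and Sdha without Myod1_control replicate 2 (0.0548).

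Transcript length moved with these differences. For 13445 tested genes (95.2%) a longest transcript was found by gene ID in the GENCODE M21 annotation, and across genes length and log2 difference correlated with Spearman's rho = 0.401, a description over genes that share libraries. Of 2068 genes with transcripts of up to 1000 bases 4.69% were called higher and 40.2% lower, with a median log2 difference of -0.58. Of 4091 genes with transcripts over 4000 bases 25.5% were higher and 7.99% lower, with a median of 0.27. In the libraries outside the contrast, Myod1_active minus WT, rho was 0.331 and the medians of these bins were -0.35 and 0.22. The ribosomal list had a median transcript length of 1192 bases and the respiratory chain list of 1298 bases. When a trend with length was removed from each library, an alternative added once the data had been seen, 1749 genes rose and 1834 fell, so the share of higher calls went from 43.0% to 48.8%. In that fit 19 ribosomal genes fell with a median of -0.70, 14 respiratory chain genes fell with a median of -0.45, and 10 of 11 mitochondrial messages rose with a median of 1.22. With the trend removed the medians were 1.5 for male-biased, -2.06 for female-biased, 0.98 for fatty acid oxidation and -0.84 for interferon genes. They were -1.18 for macrophage, -1.26 for endothelial and -1.23 for stellate markers. RNA integrity is not stated in the sources used here, and its part in the length trend was not tested.

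**Figure D3:**
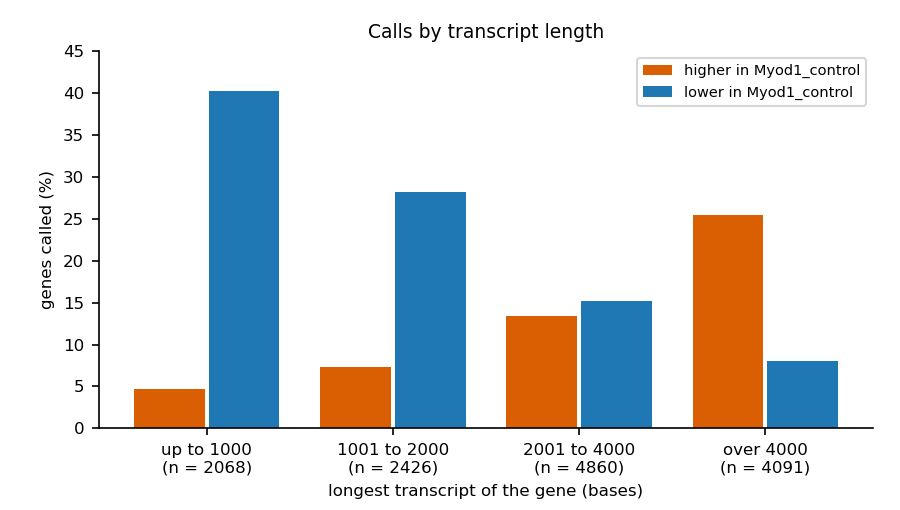
Share of genes called higher or lower in Myod1_control by length of the longest transcript. Bars are percentages of the tested genes of each length bin (n under each bin), and the share called lower goes from 40.2% in the shortest bin to 7.99% in the longest, while the share called higher goes from 4.69% to 25.5%.

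The unfolded protein response, by which cells raise the folding and degradation capacity of the endoplasmic reticulum, was higher in part. Of its 37 tested genes 11 rose (29.7%) and 0 fell (median 0.39), against 14.6% and 19.3% of all tested genes. The median was 0.75 without SunTag replicate 1, 0.24 without SunTag replicate 2 and 0.25 with no scaling. Derl3 (ENSMUSG00000009092, chr10:75356143-75358686), a channel component for degradation of misfolded proteins, was at 1.51 and 1.67 scaled FPKM in SunTag and 27 and 22.2 in Myod1_control (log2 difference 3.30, SE 0.16, adjusted p = 0.000155). Its high level was that of the 2 Myod1_control libraries alone: WT was at 1.79 and 1.86 and Myod1_active at 0.825 scaled FPKM. Ern1, the stress sensor IRE1, was at 6.39 and 8.14 scaled FPKM in SunTag and 23.5 and 19.5 in Myod1_control (log2 difference 1.45, adjusted p = 0.00422). Xbp1, the factor it activates by splicing, was at 93 and 79.6 scaled FPKM in SunTag and 164 and 122 in Myod1_control. The disulfide isomerases Pdia3 and Pdia6 were at 244 and 197 scaled FPKM in SunTag and 604 and 569 in Myod1_control (Pdia3) and 182 and 124 scaled FPKM in SunTag and 357 and 331 in Myod1_control (Pdia6). Sel1l, the scaffold of the degradation complex, was at 43.5 and 28.1 scaled FPKM in SunTag and 78.2 and 87.5 in Myod1_control. The translocon subunit Sec61a1 was at 55.7 and 49.8 scaled FPKM in SunTag and 95.3 and 117 in Myod1_control. All 7 genes were higher in both Myod1_control libraries than in either SunTag library. The chaperones at the centre of the response did not pass: Hspa5 (BiP) was at 496 and 244 scaled FPKM in SunTag and 579.6 and 1217 in Myod1_control (log2 difference 1.27, adjusted p = 0.0676) and Hsp90b1 (GRP94) at 396 and 222 scaled FPKM in SunTag and 463 and 742 in Myod1_control (log2 difference 0.98, adjusted p = 0.0718). For both chaperones SunTag replicate 1 came close to Myod1_control replicate 1. Herpud1 and Dnajb9, targets of the response, were at 192 and 69.5 scaled FPKM in SunTag and 125 and 143 in Myod1_control (Herpud1) and 37.3 and 12 scaled FPKM in SunTag and 10.6 and 13.6 in Myod1_control (Dnajb9), and neither passed. Among members, between 5 (without Myod1_control replicate 2) and 15 (without SunTag replicate 1) rose with 1 library left out, and 4 genes fell without SunTag replicate 2. Not called under every setting, with the adjusted p, were Xbp1 without any 1 of the 6 SunTag, WT and Myod1_control libraries, with no scaling, with rows under 300 bp kept, with no filter on low values, in a fit of the 4 libraries alone (0.0501 to 0.153), and Pdia6 with either Myod1_control library left out (0.0781 to 0.0902). Calls that ended under another setting, with the adjusted p there, were those of Sel1l with either Myod1_control library left out (0.0567 to 0.0705), and Sec61a1 without Myod1_control replicate 2 (0.0578).

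Promoters of Derl3 and Pdia6 are shown because, of the 8 genes of this list that rose and have a promoter in the RefSeq table, these 2 hold the endoplasmic reticulum stress element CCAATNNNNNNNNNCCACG (25%), which 0.137% of all 27025 genes hold in the same 300-base window on either strand. The windows are chr10:75893148-75893447 and chr12:17266339-17266638, both on the plus strand of GRCm38.p6, and the match is in capitals, reversed in Derl3.
Derl3: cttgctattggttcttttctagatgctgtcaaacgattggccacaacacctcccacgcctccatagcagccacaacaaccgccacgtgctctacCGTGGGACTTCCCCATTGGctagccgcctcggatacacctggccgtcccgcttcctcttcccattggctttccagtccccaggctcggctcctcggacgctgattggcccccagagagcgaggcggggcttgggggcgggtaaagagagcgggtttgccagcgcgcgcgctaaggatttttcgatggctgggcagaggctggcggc
Pdia6: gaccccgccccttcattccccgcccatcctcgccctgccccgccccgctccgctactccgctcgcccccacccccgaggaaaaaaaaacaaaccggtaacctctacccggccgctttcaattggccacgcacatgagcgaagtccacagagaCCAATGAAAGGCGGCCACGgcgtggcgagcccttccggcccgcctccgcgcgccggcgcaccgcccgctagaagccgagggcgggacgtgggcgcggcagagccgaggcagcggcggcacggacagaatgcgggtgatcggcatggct

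A match describes the letters only. The related element TGACGTGG was in 0 of these 8 promoters and in 0.714% of all. Promoters of the 26 tested genes of this list that were not called were not counted. Whether either element is more frequent in the genes that rose than in the rest of the list is therefore unknown.

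Metallothioneins, small proteins that bind zinc and copper and are induced by metals and glucocorticoids, showed a wide gap between the groups. Mt1 (ENSMUSG00000031765, chr8:96702989-96704225) was at 949 and 987 scaled FPKM in SunTag, 577 and 324 in WT, 7.12 and 13.1 in Myod1_control and 26.9 in Myod1_active (log2 difference -6.50, SE 0.34, adjusted p = 0.000222). Mt2, its neighbour at chr8:96696518-96697467, was at 349.7 and 362 scaled FPKM in SunTag and 2.42 and 4.35 in Myod1_control (log2 difference -6.38, SE 0.47, adjusted p = 0.00125). Every library of the Myod1 experiment was lower than every SunTag and WT library for both genes. Of 8 metallothionein and zinc genes 3 rose and 2 fell (median 0.18, from -0.14 to 0.80 over the settings). That is 37.5% and 25%, against 14.6% and 19.3% of all tested genes. Among zinc carriers the importer Slc39a14 rose, at 38.5 and 44.2 scaled FPKM in SunTag and 102 and 93.4 in Myod1_control, as did the exporter Slc30a1, at 5.77 and 9.03 scaled FPKM in SunTag and 18.2 and 25.5 in Myod1_control. Of the 17 glucocorticoid targets, a list that also holds Mt1 and Mt2, 8 fell and 3 rose (median -0.80), and between 3 (without Myod1_control replicate 1) and 9 (without SunTag replicate 2) fell with 1 library left out. The median was -0.10 without SunTag replicate 1 and -0.52 with the transcript length trend removed. Of these glucocorticoid targets 47.1% fell and 17.6% rose, against 19.3% and 14.6% of all tested genes. Tsc22d3 (GILZ), a classical glucocorticoid target, was at 148 and 90.8 scaled FPKM in SunTag and 20.1 and 37 in Myod1_control (log2 difference -2.04, adjusted p = 0.00879), while Zbtb16, a target too, rose, at 1.01 and 1.06 scaled FPKM in SunTag and 12.3 and 11.3 in Myod1_control (log2 difference 2.65, adjusted p = 0.00725). Ddit4, induced by glucocorticoids and low oxygen, fell, at 42.7 and 21.5 scaled FPKM in SunTag and 4.75 and 7.66 in Myod1_control. Under other settings the adjusted p reached 0.05 or more for Slc30a1 without Myod1_control replicate 2 (0.0585), and Tsc22d3 without Myod1_control replicate 1 (0.0566). Some calls did not hold under every setting: Zbtb16 with either Myod1_control library left out (0.0526 to 0.0542), and Ddit4 with either Myod1_control library left out (0.0503 to 0.0703).

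Interferon-stimulated genes were lower in Myod1_control, with 21 of 41 down, 0 up and a median log2 difference of -0.81. Ifit1, an antiviral RNA-binding protein, was at 7.13 and 7.84 scaled FPKM in SunTag and 1.42 and 1.12 in Myod1_control (log2 difference -1.90, SE 0.16, adjusted p = 0.00177). Isg15, a ubiquitin-like protein, was at 18.4 and 22.4 scaled FPKM in SunTag and 5.13 and 3.96 in Myod1_control (log2 difference -1.95, adjusted p = 0.00259). Ifi27l2a was at 24 and 21.9 scaled FPKM in SunTag and 2.59 and 2.33 in Myod1_control. The guanylate-binding protein Gbp3 was at 5.77 and 6.0 scaled FPKM in SunTag and 1.31 and 0.936 in Myod1_control. The immunity-related GTPase Igtp was at 27 and 26.9 scaled FPKM in SunTag and 11.3 and 9.96 in Myod1_control. Both Myod1_control libraries were below all SunTag and WT libraries for these 5 genes, and so was Myod1_active. Of this list between 6 (without Myod1_control replicate 2) and 20 (without SunTag replicate 2) fell with 1 library left out. In the same libraries 19 of 28 macrophage, 10 of 14 T and NK cell and 24 of 30 endothelial markers fell, against 19.3% of all tested genes. Of the 14 T and NK cell markers 13 reached 1 FPKM in SunTag and in no Myod1_control library, and so had to differ to enter. Of the 41 interferon genes 4 likewise reached 1 FPKM in SunTag and in no Myod1_control library, and 1 did so in Myod1_control and in no SunTag library. Entry through SunTag alone also held for 3 of the macrophage and 4 of the endothelial markers. The part of these cells in the interferon difference was not tested.

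Acute phase genes did not move together: 6 of 38 tested members rose and 10 fell (median -0.05, from -0.22 to 0.03 over the settings). Those shares, 15.8% and 26.3%, stand beside 14.6% and 19.3% over all tested genes. Orm2, an acute phase plasma protein whose near-identical neighbours make its value uncertain, fell, at 247 and 200.3 scaled FPKM in SunTag and 81.2 and 54.6 in Myod1_control (log2 difference -1.72, adjusted p = 0.00579). Saa3, a serum amyloid gene also made by macrophages, fell, at 40.2 and 20.2 scaled FPKM in SunTag and 6.74 and 4.59 in Myod1_control. Saa1, the main hepatic serum amyloid, did not pass, at 218 and 96.2 scaled FPKM in SunTag and 87.6 and 37.2 in Myod1_control (log2 difference -1.33, adjusted p = 0.0906). Itih3, a plasma protease inhibitor chain, rose, at 353 and 359 scaled FPKM in SunTag and 720.0 and 670.0 in Myod1_control. In the immediate early list 5 of 22 tested members rose and 3 fell, 22.7% and 13.6% against the same 14.6% and 19.3% over all genes. Myc, a growth-driving transcription factor, was at 1.56 and 2.09 scaled FPKM in SunTag and 24.5 and 13.8 in Myod1_control (log2 difference 2.79, SE 0.28, adjusted p = 0.00259). Klf10 was at 1.73 and 1.32 scaled FPKM in SunTag and 5.44 and 4.52 in Myod1_control, while Klf2, a factor of endothelial cells and lymphocytes, fell, at 9.12 and 6.62 scaled FPKM in SunTag and 1.01 and 1.44 in Myod1_control. The Myc level of both Myod1_control libraries exceeded that of every SunTag and WT library, and Myod1_active was at 9.24 scaled FPKM. Of the acute phase list between 3 (without Myod1_control replicate 2) and 14 (without SunTag replicate 2) fell with 1 library left out, and of the immediate early list between 3 (without Myod1_control replicate 1) and 5 (with either SunTag library left out) rose with 1 library left out. Settings that ended a call, with the adjusted p, were found for Saa3 without SunTag replicate 1 or either Myod1_control library (0.0553 to 0.0844), and Itih3 with either Myod1_control library left out (0.0522 to 0.0575).

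Other stress programs had few calls in either direction. Counts higher and lower were 2 and 2 of 22 for the ATF4 and integrated stress response, 1 and 3 of 25 for cytosolic heat shock, 5 and 4 of 28 for NRF2 antioxidant genes, 4 and 2 of 25 for p53 and DNA damage, and 3 and 3 of 19 for hypoxia. These shares are near or below the 14.6% and 19.3% called over all genes. With 1 library left out the higher and lower counts ran from 0 to 4 and 0 to 3 for ATF4, 0 to 1 and 1 to 9 for heat shock, 1 to 7 and 1 to 6 for NRF2, 0 to 4 and 0 to 3 for p53 and 1 to 3 and 0 to 4 for hypoxia genes. The NRF2 and p53 medians had no stable sign, from -0.07 to 0.18 and from -0.08 to 0.34 over the settings. The small heat shock protein Cryab fell, at 6.09 and 3.98 scaled FPKM in SunTag and 0.901 and 1.21 in Myod1_control (log2 difference -1.53, adjusted p = 0.00614). WT stood at 4.17 and 5.48 scaled FPKM for Cryab and Myod1_active at 24.7. The NRF2 targets Aox1, an aldehyde oxidase, and Cbr1, a carbonyl reductase, moved apart, at 8.41 and 11.6 scaled FPKM in SunTag and 36.8 and 60.0 in Myod1_control (Aox1) and 76.6 and 78.3 scaled FPKM in SunTag and 31 and 37.8 in Myod1_control (Cbr1). Slc2a1, the glucose transporter GLUT1 and a hypoxia target, rose, at 5.07 and 6.09 scaled FPKM in SunTag and 13.8 and 15 in Myod1_control (log2 difference 1.23, adjusted p = 0.00443). Of the clock genes and their outputs 3 of 20 rose and 1 fell, and the core activator Arntl (BMAL1) was at 8.78 and 8.81 scaled FPKM in SunTag and 8.32 and 9.57 in Myod1_control (log2 difference 0.02, adjusted p = 0.925). Nr1d1, a repressor whose message swings widely over the day, was at 1.02 and 3.98 scaled FPKM in SunTag and 8.61 and 5.45 in Myod1_control and did not pass (log2 difference 1.31, adjusted p = 0.141).

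**Figure D4:**
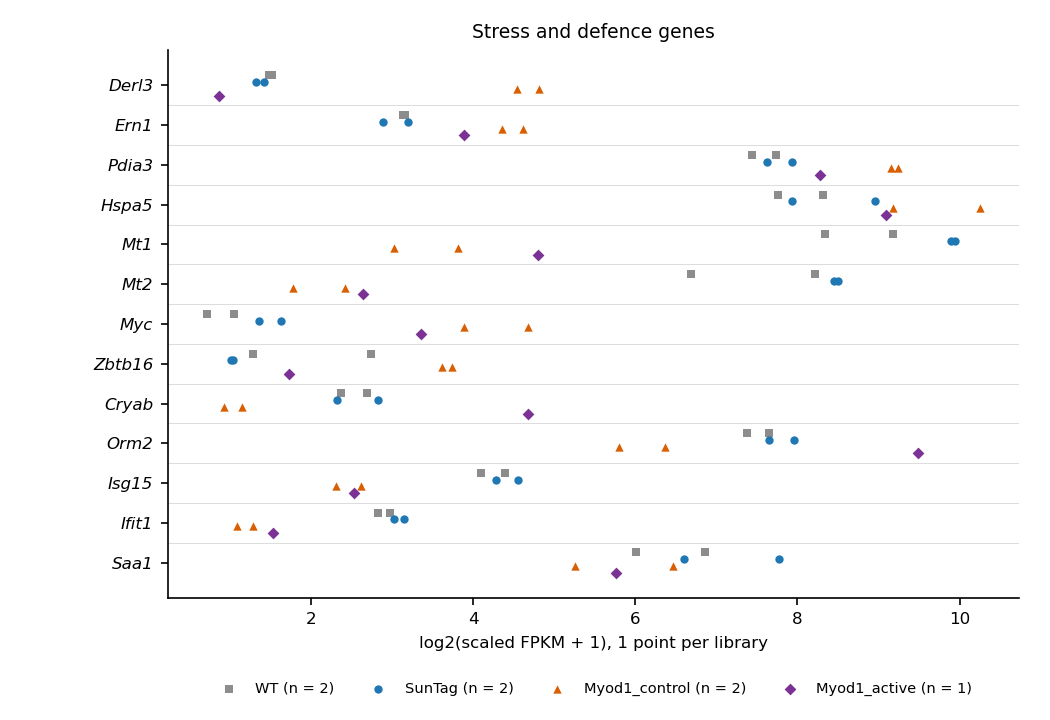
Stress and defence genes by library. The horizontal axis is log2(scaled FPKM + 1) and each point is 1 library; Derl3 is high in the 2 Myod1_control libraries alone, Mt1 and Mt2 are low in all 3 libraries of the Myod1 experiment, and Cryab and Orm2 are lowest in Myod1_control and highest in Myod1_active.

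Few hepatocyte identity genes passed the test, while macrophage, endothelial and stellate markers mostly fell. Of 32 hepatocyte identity and secreted protein genes 2 rose and 3 fell (median -0.03, from -0.17 to 0.16 over the settings), and their summed level was 181577 and 182083 scaled FPKM in SunTag and 166506 and 157297 in Myod1_control. Albumin, Alb, was at 46119 and 47954 scaled FPKM in SunTag and 33374 and 38816 in Myod1_control (log2 difference -0.39, adjusted p = 0.225). The transcription factor Hnf4a was at 137 and 145 scaled FPKM in SunTag and 164 and 199 in Myod1_control (log2 difference 0.35, adjusted p = 0.155), and neither passed although the groups did not overlap. The pioneer factors Foxa1 and Foxa2 rose, at 2.39 and 3.42 scaled FPKM in SunTag and 15.8 and 8.85 in Myod1_control (Foxa1) and 9.29 and 25 scaled FPKM in SunTag and 80.1 and 57 in Myod1_control (Foxa2), and the apolipoprotein Apoc1 fell, at 11805 and 9829.7 scaled FPKM in SunTag and 4836 and 4079 in Myod1_control. In bulk tissue, fewer cells of a type and less of its RNA per cell cannot be told apart. Along the lobule, 2 of 27 pericentral genes rose and 2 fell (median 0.34, from -0.09 to 0.75). Of 26 periportal genes 4 rose and 9 fell (median -0.49, from -0.62 to -0.25). The shares that rose and fell were 7.41% and 7.41% of pericentral and 15.4% and 34.6% of periportal genes. They were 6.25% and 9.38% of the hepatocyte identity list, against 14.6% and 19.3% of all tested genes. Hsd17b6 and Ctsc, periportal genes, fell, at 114 and 83.5 scaled FPKM in SunTag and 37.6 and 40.5 in Myod1_control (Hsd17b6) and 61.9 and 57.2 scaled FPKM in SunTag and 25.8 and 25.1 in Myod1_control (Ctsc), and Lect2, a pericentral secreted protein, fell, at 118 and 146 scaled FPKM in SunTag and 57.7 and 52.8 in Myod1_control. Without a library, between 0 and 12 pericentral genes rose, the most without SunTag replicate 2, and between 3 and 11 periportal genes fell, the fewest without Myod1_control replicate 2. Not called under every setting, with the adjusted p, were Foxa2 with either Myod1_control library left out (0.0597 to 0.0842), and Apoc1 with either Myod1_control library left out, with no filter on low values (0.0505 to 0.113). Calls that ended under another setting, with the adjusted p there, were those of Lect2 without Myod1_control replicate 2 (0.0506).

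Kupffer cell and macrophage markers fell: 19 of 28 were lower, 0 higher, and the median log2 difference was -1.42. Their summed level was 1028 and 652 scaled FPKM in SunTag and 202 and 277 in Myod1_control, with 582 and 745 in WT and 311 in Myod1_active, and no tested marker was at 0 in both Myod1_control libraries. Clec4f (ENSMUSG00000014542, chr6:83594536-83606181), a lectin specific to Kupffer cells, was at 147 and 103 scaled FPKM in SunTag and 12.5 and 14.5 in Myod1_control (log2 difference -3.10, SE 0.25, adjusted p = 0.0016). Vsig4, a complement receptor of resident macrophages, was at 26.9 and 18.7 scaled FPKM in SunTag and 3.55 and 2.72 in Myod1_control. Csf1r, the receptor they need to survive, was at 18.9 and 16.1 scaled FPKM in SunTag and 4.11 and 4.2 in Myod1_control. The complement subunit C1qa was at 132 and 72.2 scaled FPKM in SunTag and 15 and 16.1 in Myod1_control. For all 4 markers both Myod1_control libraries were several-fold below both SunTag libraries. MHC class II genes fell in 7 of 8, with a median of -2.29 and a summed level of 482 and 143 scaled FPKM in SunTag and 13.6 and 35.8 in Myod1_control: the invariant chain Cd74 was at 213 and 65.4 scaled FPKM in SunTag and 5.16 and 12.9 in Myod1_control. The alpha chain H2-Aa was at 77.4 and 22 scaled FPKM in SunTag and 1.45 and 4.47 in Myod1_control. SunTag replicate 1 was more than 2-fold above SunTag replicate 2 for both, and H2-Ob was listed at 0 in both Myod1_control libraries. Of the macrophage list between 12 (without Myod1_control replicate 1) and 20 (without SunTag replicate 2) fell with 1 library left out, and of the MHC class II list between 0 (without Myod1_control replicate 1) and 7 (without SunTag replicate 2 or either WT library) fell with 1 library left out. The MHC class II median was -1.50 without SunTag replicate 1. Of the tested members 3 of 8 MHC class II and 3 of 28 macrophage genes reached 1 FPKM in SunTag and in no Myod1_control library, and 7 of 15 and 2 of 30 were below the filter, so neither count covers its whole list. Under other settings the adjusted p reached 0.05 or more for Cd74 without Myod1_control replicate 1 (0.0548), and H2-Aa without Myod1_control replicate 1 (0.0595).

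Lymphocyte and neutrophil markers were low, and part of those tested fell. Of 21 listed B and plasma cell markers 9 were tested and 7 fell, with a summed level of 449.99 and 350.1 scaled FPKM in SunTag and 156 and 141 in Myod1_control. Igkc, the immunoglobulin kappa constant gene, was at 149 and 51.1 scaled FPKM in SunTag and 3.11 and 2.4 in Myod1_control (log2 difference -4.56, SE 0.45, adjusted p = 0.00259). The B cell receptor component Cd79a was at 3.38 and 2.25 scaled FPKM in SunTag and 0.0944 and 0.0709 in Myod1_control. Of 26 T and NK cell markers 14 were tested and 10 fell, with a summed level of 38 and 15.6 scaled FPKM in SunTag and 4.53 and 1.3 in Myod1_control, and the defining markers Trac and Nkg7 were listed at 0 in both Myod1_control libraries. Lck, the kinase of the T cell receptor, was at 2.16 and 1.96 scaled FPKM in SunTag and 0.219 and 0 in Myod1_control. The receptor constant gene Trbc2 was at 5.11 and 2.23 scaled FPKM in SunTag and 0.0927 and 0 in Myod1_control. Of 18 neutrophil markers 9 were tested and 4 fell, among them the calprotectin subunit S100a9, at 17.1 and 3.44 scaled FPKM in SunTag and 0.286 and 0.287 in Myod1_control, and Camp and Ngp were at 0 in both Myod1_control libraries. Of the tested markers 5 of the B cell, 13 of the T and NK cell and 7 of the neutrophil list reached 1 FPKM in a SunTag library and in no Myod1_control library, so the counts describe genes that entered through SunTag and not the whole lists. Of the B cell markers between 4 (with either Myod1_control library left out) and 7 (without SunTag replicate 2 or either WT library) fell with 1 library left out, of the T and NK markers between 3 (without Myod1_control replicate 1) and 13 (without SunTag replicate 2) fell with 1 library left out, and of the neutrophil markers between 0 (with either Myod1_control library left out) and 8 (without SunTag replicate 2) fell with 1 library left out. Some calls did not hold under every setting: S100a9 with either Myod1_control library left out, with no filter on low values (0.0537 to 0.0829).

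Endothelial and stellate cell markers mostly fell. Of 30 sinusoidal and vascular endothelial genes 24 fell and 1 rose (median -1.19), and their summed level was 383 and 424 scaled FPKM in SunTag and 156 and 157 in Myod1_control, with 395 and 391 in WT and 95.4 in Myod1_active. Stab1 (ENSMUSG00000042286, chr14:31952199-31981827), a scavenger receptor of sinusoidal endothelium and macrophages, was at 50.02 and 46.5 scaled FPKM in SunTag and 7.18 and 8.86 in Myod1_control (log2 difference -2.46, SE 0.18, adjusted p = 0.00124). Clec4g, a sinusoidal lectin, was at 53.1 and 59 scaled FPKM in SunTag and 14.7 and 13.9 in Myod1_control (log2 difference -1.90, adjusted p = 0.0016). Ramp2, a receptor subunit of vessels, was at 11 and 12.6 scaled FPKM in SunTag and 2.57 and 2.26 in Myod1_control. Stab2, the sister scavenger receptor of the sinusoids, did not follow, at 7.41 and 13 scaled FPKM in SunTag and 5.79 and 9.53 in Myod1_control (log2 difference -0.36, adjusted p = 0.363). Nrp1, a vascular coreceptor, was the gene that rose, at 8.59 and 9.21 scaled FPKM in SunTag and 13.8 and 14.7 in Myod1_control. Of 29 stellate cell and matrix genes 20 fell and 2 rose (median -1.03), with a summed level of 660.4 and 454 scaled FPKM in SunTag and 166 and 158 in Myod1_control. Ecm1 (chr3:95538070-95543492), a secreted matrix protein, was at 210.0 and 181 scaled FPKM in SunTag and 24 and 28 in Myod1_control (log2 difference -2.86, SE 0.20, adjusted p = 0.00122). The proteoglycan Dcn was at 93.3 and 50.2 scaled FPKM in SunTag and 11.7 and 7.83 in Myod1_control. The collectin Colec11 was at 47.7 and 26 scaled FPKM in SunTag and 4.97 and 3.64 in Myod1_control. The stellate factor Hand2 was at 4.56 and 4.24 scaled FPKM in SunTag and 0.787 and 0.774 in Myod1_control. Lrat, which stores vitamin A as esters in stellate cells, fell as well, at 3.86 and 2.94 scaled FPKM in SunTag and 0.978 and 1.33 in Myod1_control (log2 difference -1.03, adjusted p = 0.0101). The basement membrane collagens Col4a1 and Col4a2 rose instead, at 7.07 and 6.14 scaled FPKM in SunTag and 12.5 and 11.5 in Myod1_control (Col4a1) and 4.02 and 6.23 scaled FPKM in SunTag and 12.8 and 12.8 in Myod1_control (Col4a2). Apart from Stab2, every gene named here was on the same side in both libraries of a group, and no tested marker of either list was at 0 in both Myod1_control libraries. Of the endothelial list between 17 (with either Myod1_control library left out) and 24 (without SunTag replicate 1) fell with 1 library left out, and of the stellate list between 11 (without Myod1_control replicate 1) and 20 (without SunTag replicate 2) fell with 1 library left out. Of the tested genes 4 endothelial and 8 stellate genes entered through SunTag alone, reaching 1 FPKM in no Myod1_control library, and 1 and 4 listed genes were not tested. Among these the stellate gene Reln was not low, at 13.6 and 0 scaled FPKM in SunTag and 4.53 and 4.86 in Myod1_control. Settings that ended a call, with the adjusted p, were found for Nrp1 without SunTag replicate 1 or either WT library or either Myod1_control library, in a fit of the 4 libraries alone (0.0531 to 0.0826), and Lrat without Myod1_control replicate 1 (0.054). Not called under every setting, with the adjusted p, were Col4a1 with either Myod1_control library left out, with the transcript length trend removed (0.0523 to 0.0627), and Col4a2 with either Myod1_control library left out (0.0592 to 0.0604).

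**Figure D5:**
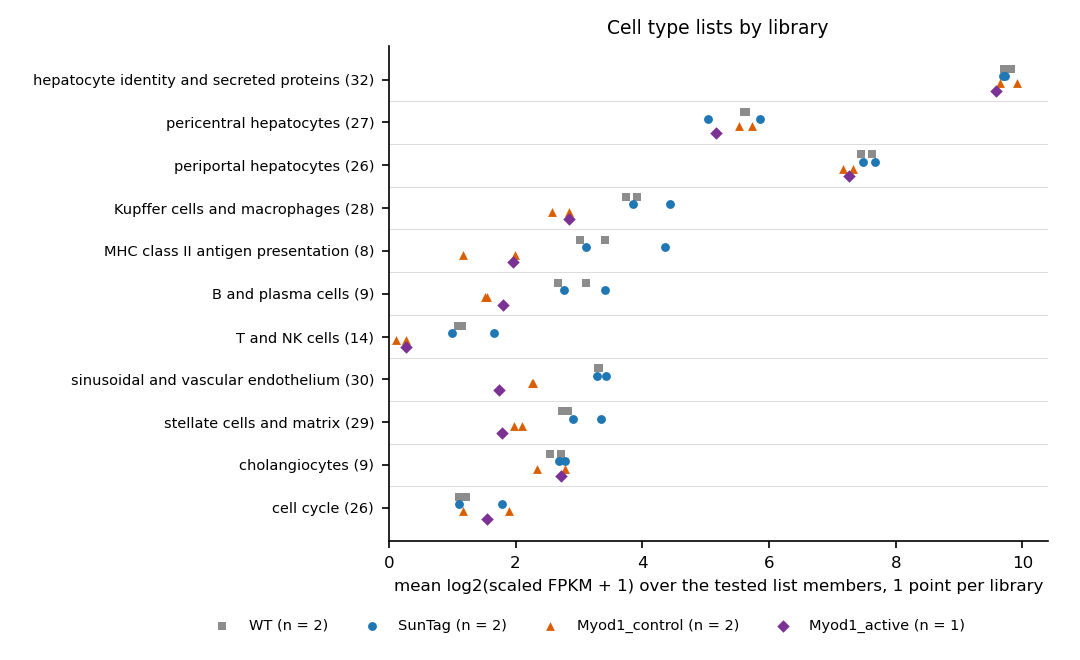
Cell type lists by library. The horizontal axis is the mean log2(scaled FPKM + 1) over the tested members of a list (number in parentheses) and each point is 1 library; the Myod1_control libraries lie below both SunTag libraries for the macrophage, MHC class II, B, T and NK, endothelial and stellate lists, and the groups overlap for the hepatocyte, pericentral, cholangiocyte and cell cycle lists.

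Hemoglobin messages gave the lowest log2 differences of all named genes. Hbb-b1 (ENSMUSG00000052305, chr7:110975048-110976610) and Hba-a2, adult beta and alpha globin of red cells, were at 1837 and 1053 scaled FPKM in SunTag and 0.696 and 0 in Myod1_control (Hbb-b1) and 1609.8 and 1048 scaled FPKM in SunTag and 0.304 and 0.507 in Myod1_control (Hba-a2) (log2 differences -10.06 and -9.86, adjusted p = 1.93e-05 and 7.35e-06). The near-identical copies Hbb-b2 and Hba-a1, uncertain one by one, were at 959 and 554 scaled FPKM in SunTag and 0.118 and 0 in Myod1_control (Hbb-b2) and 1912 and 1225 scaled FPKM in SunTag and 0.864 and 1.37 in Myod1_control (Hba-a1). WT stood at 614 and 598 scaled FPKM for Hbb-b1 and Myod1_active at 2.81. The heme enzymes of the same list did not follow: Alas2, the erythroid form of the first enzyme, was higher in Myod1_control, at 21.5 and 13.7 scaled FPKM in SunTag and 48.1 and 41.9 in Myod1_control (log2 difference 1.33, adjusted p = 0.00873), and Ppox, a late enzyme present in all cells, rose too, at 9.84 and 12.6 scaled FPKM in SunTag and 28.2 and 30.3 in Myod1_control. Of 18 tested genes of red cells and heme synthesis 3 rose and 5 fell. Those shares, 16.7% and 27.8%, are near the 14.6% and 19.3% over all tested genes. The platelet and megakaryocyte list had 5 tested members of 13, of which 4 fell, among them the receptor Clec1b, at 18.8 and 9.32 scaled FPKM in SunTag and 1.41 and 2.87 in Myod1_control. Of the tested members 3 of the platelet and 5 of the red cell and heme list reached 1 FPKM in SunTag and in no Myod1_control library, and 8 and 4 were below the filter, so these counts do not describe the whole lists. With 1 library left out, the count of red cell and heme genes that fell ran from 4 to 6 and that of platelet genes from 0 to 4, fewest without Myod1_control replicate 1 or SunTag replicate 1 and without Myod1_control replicate 1. The part of blood cells in the lower leukocyte markers was not tested. Calls that ended under another setting, with the adjusted p there, were those of Alas2 with either Myod1_control library left out (0.0515 to 0.0599), and Ppox without Myod1_control replicate 2 (0.0547). Under other settings the adjusted p reached 0.05 or more for Clec1b without Myod1_control replicate 1 (0.0506).

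Cholangiocyte, proliferation and neighbouring-tissue markers gave no single direction. Of 9 tested cholangiocyte markers 3 rose and 3 fell (median -0.21, from -0.82 to 0.38 over the settings), and with 1 library left out 0 to 3 rose and 0 to 3 fell. The keratin Krt19 did not pass, at 3.35 and 2.24 scaled FPKM in SunTag and 0.687 and 1.74 in Myod1_control (log2 difference -0.80, adjusted p = 0.0717), while the keratin Krt7 fell, at 1.52 and 0.959 scaled FPKM in SunTag and 0.0741 and 0.0783 in Myod1_control. The transcription factor Sox9, which periportal hepatocytes also express, rose, at 1.37 and 2.81 scaled FPKM in SunTag and 6.5 and 8.53 in Myod1_control. None of 26 cell cycle genes passed limma's test, and 4 of them had an unadjusted p under 0.05. Pcna, the replication clamp, was at 28.3 and 19 scaled FPKM in SunTag and 16.3 and 11.7 in Myod1_control (log2 difference -0.71, adjusted p = 0.0603). Mki67, a marker of dividing cells, was below the filter, at 0.756 and 0.128 in SunTag and 0.585 and 0.171 in Myod1_control. The median of the cell cycle list went from -0.30 to 0.45 over the settings, and between 0 (without either Myod1_control library or SunTag replicate 1 or either WT library) and 7 (without SunTag replicate 2) fell with 1 library left out. Fabp4, a fatty acid binding protein of adipocytes, macrophages and endothelium, fell, at 68.2 and 24.6 scaled FPKM in SunTag and 1.56 and 5.11 in Myod1_control (log2 difference -3.41, adjusted p = 0.00719). Lpl, lipoprotein lipase, rose, at 10.1 and 5.38 scaled FPKM in SunTag and 20.4 and 23 in Myod1_control. The mesothelial markers Msln and Upk3b fell from low levels, at 4.95 and 1.29 scaled FPKM in SunTag and 0 and 0.031 in Myod1_control (Msln) and 6.69 and 1.63 scaled FPKM in SunTag and 0.111 and 0 in Myod1_control (Upk3b). In SunTag but in no Myod1_control library, 4 of 8 tested mesothelial and gut genes reached 1 FPKM. So did 3 of 9 cholangiocyte and 3 of 4 muscle genes. Msln, Upk3b and Krt7 were among these genes and so had to differ to enter. Lgals4, a lectin of gut epithelium, rose, at 4.75 and 6.85 scaled FPKM in SunTag and 22.7 and 26.6 in Myod1_control (log2 difference 1.93, adjusted p = 0.00286). For Lgals4 both Myod1_control libraries were above all other libraries of the series. Of the listed exocrine pancreas genes 2 of 20 were tested, of the muscle genes 4 of 26, and of 10 nerve, kidney and lung genes none reached the filter. Myod1 was listed at 0 in all 4 libraries. Some calls did not hold under every setting: Krt7 without SunTag replicate 1 or either Myod1_control library (0.0527 to 0.0659), and Sox9 without Myod1_control replicate 2 (0.0595). Settings that ended a call, with the adjusted p, were found for Fabp4 without Myod1_control replicate 1 (0.0506), and Lpl with either Myod1_control library left out (0.0567 to 0.0692). Not called under every setting, with the adjusted p, were Msln with either Myod1_control library left out, with no filter on low values (0.0517 to 0.0845), and Upk3b with either Myod1_control library left out, with no filter on low values (0.0516 to 0.0865).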

How the data were processed

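The deposited tables hold FPKM per gene. Per the submitters' processing notes the authors used cutadapt 1.11, TopHat2 2.1.1 and Cufflinks 2.2.1 with the build mm9, whose coordinates are given here counted from 1. Their other settings, strand use among them, are not stated in the sources used here. FPKM carry no read counts, so depth is unknown and no count model was used. Rows with the status OK, a span of at least 300 bp and FPKM of 1 or more in at least 1 of the 4 libraries were kept; 1436 shorter rows that reached 1 FPKM were left out. FPKM were divided by 1 median-ratio factor per library, taken over 11159 rows with FPKM of 1 or more in all 7 libraries, and log2(scaled FPKM + 1) was fitted with limma 3.58.1 in R 4.3.3. The fit had 1 mean per group over all 7 libraries and a mean-dependent variance, and was tested two-sided with Benjamini-Hochberg adjustment over 14120 genes at 0.05. Log2 differences on this scale understate the change of low genes. The fit was also run on simulated libraries, whose outcome is not reported here. These had independent spread per gene, no transcript length trend and far fewer changed genes than were called, so they cannot vouch for the calls. Lists were summarised with Python 3.11.15 and pandas 2.3.3 and plotted with matplotlib 3.10.9. The genes and lists were chosen with earlier results of these data known. Named genes were the 10 called genes with the largest difference in each direction, at most 6 of smallest p per list and direction (where fewer than 2 passed, the most abundant), tested sex, clock and unfolded protein genes, and a set list of marker and target genes such as Alb, Hspa5 and Mki67. Alternatives changed the scaling, pseudocount, filter, variance model and libraries used. Some genes that the rule allows are not reported here.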

Additional observations from a re-analysis of the deposited data

How the results depend on the processing

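The counts of higher and lower genes stayed within 1.5 times of 2056 and 2725 under the other scalings, pseudocounts, filters and variance models. A fit of only the 4 libraries of the 2 groups gave 1189 higher and 1645 lower genes. Leaving out 1 library at a time gave 664 to 2230 higher and 657 to 3183 lower genes, the fewest without Myod1_control replicate 2 and the most without SunTag replicate 2. A group left with 1 library is assumed there to vary like the other groups. Whether replicate numbers pair the libraries is not known. Deviations of same-numbered libraries of the 2 groups from their group means correlated at 0.0567 across genes. The value was 0.101 for WT and SunTag and 0.0548 for Myod1_control and WT. Each is a single correlation over genes that share libraries, so it cannot show that libraries are unpaired. With a replicate block 2083 genes were higher and 2737 lower. Removing the transcript length trend, chosen after the data were seen, kept 1365 higher and 1569 lower calls.

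Of 151 named genes 135 were called, 84 of them under every setting, and 38 lost the call only without a Myod1_control library. The signs of 6 named genes changed under a setting, and none of the 6 was called. The log2 difference of Arntl was -0.10 with no scaling, -0.0016 with quantile normalization and -0.079 with the length trend removed, and ran from -0.067 to 0.12 with 1 library left out. With 1 library left out Fasn ran from -0.25 to 1.23, Cyp7a1 from -1.52 to 0.048, Herpud1 from -0.52 to 0.93, Dnajb9 from -1.56 to 0.0091 and Stab2 from -0.73 to 0.0032. The cause was not tested. Of 49 lists 35 kept the sign of their median. No read counts, RNA integrity values or further libraries per group bear on these values, and 2 libraries a group limit their precision.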
